A study of Homo sapiens with 12 samples.

Results

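The 10 genes described here are NFE2L2, which encodes the transcription factor NRF2, its regulators KEAP1 and MAFG, its target genes NQO1, TXNRD1, SRXN1, OSGIN1 and SQSTM1, and the thioredoxin pathway genes TXN and PRDX1. They were taken by gene name from a deposited table of read counts that lists 61209 gene names, of which 18526 passed a filter on low counts. All 10 were in the table and all 10 passed. The table holds 12 RNA sequencing libraries of A375, an established human melanoma cell line. In 3 libraries control cells were kept with glucose and in 3 control cells were starved of glucose for 5 h. In 3 libraries OGDH-depleted cells were kept with glucose and in 3 OGDH-depleted cells were starved for 5 h. OGDH is the catalytic subunit of the mitochondrial oxoglutarate dehydrogenase complex. By title the depleted cells are a knockout, by the series text a knockdown, and neither says whether they are 1 clone, how OGDH was removed, or what the control cells received. Whether the 3 libraries in a group stem from separate cultures is not stated, so p-values measure the spread between these libraries, which may be technical.

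NRF2 is a transcription factor that pairs with a small MAF protein such as MAFG and binds antioxidant response elements near genes for antioxidant and detoxifying enzymes. In unstressed cells KEAP1 binds NRF2 and presents it to a CUL3 ubiquitin ligase for degradation, so NRF2 is controlled largely at the protein level, and the messenger of NFE2L2 need not follow its activity. The autophagy receptor p62, the product of SQSTM1, can bind KEAP1 and release NRF2. Among the targets, TXNRD1 is the cytosolic thioredoxin reductase that uses NADPH to reduce thioredoxin, TXN. Thioredoxin in turn reduces peroxiredoxins such as PRDX1, which remove hydrogen peroxide, and SRXN1 repairs peroxiredoxins that have been over-oxidised.

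Promoter letters were read for the members because several of them moved together in the counts. The RefSeq table of promoter windows (GRCh38.p14, from 250 bases before to 50 bases after a start) held 14 windows for 9 of the 10 genes, and PRDX1 was not matched. The core of the antioxidant response element, searched as TGACNNNGC on both strands, was found in 3 of the 14 windows, in 1 window of KEAP1 and in both windows of TXNRD1, and in 13.3% of all 35116 windows of that length. The AP-1 letters TGANTCA, which can overlap the antioxidant element, were found in 1 window, that of OSGIN1, and in 7.71% of all windows. The heat shock element, searched as a pair of inverted units (6.71% of all windows), and the letters TGATGNAA, taken from the elements that ATF4 and C/EBP proteins bind (3.62% of all windows), were in none of the 14. The stretches that hold the upstream matches are printed 5′ to 3′ on the gene's strand, with the matches in capitals. The first KEAP1 match and the first TXNRD1 match read forward and the other antioxidant matches read on the opposite strand.
KEAP1, chr19:10502772-10502855, minus strand: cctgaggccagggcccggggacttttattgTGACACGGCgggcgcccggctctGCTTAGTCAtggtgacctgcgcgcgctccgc
TXNRD1 upstream start, chr12:104215650-104215718, plus strand: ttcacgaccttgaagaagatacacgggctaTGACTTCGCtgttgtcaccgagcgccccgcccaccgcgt
TXNRD1 downstream start, chr12:104286900-104286968, plus strand: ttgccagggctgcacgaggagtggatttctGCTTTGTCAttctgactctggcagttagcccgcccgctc
OSGIN1, chr16:83953113-83953179, plus strand: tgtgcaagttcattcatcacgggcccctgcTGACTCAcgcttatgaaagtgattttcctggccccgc
A match is a description of these letters and not a measured binding site. Letters outside these short windows were not read, so a window without a match does not show that its gene lacks the element.

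The libraries held between 21556273 and 25546615 counted fragments. OGDH, the targeted gene, lay between 142 and 166 CPM (counts scaled to a common library size) in controls with glucose and 129 and 133 in starved controls, against 36.3 to 45.1 (fed) and 32.3 to 33.9 (starved) in depleted libraries. The lineage markers SOX10 and CSPG4 were present, and the summed level of 10 melanocyte markers lay between 831 and 894 CPM in controls with glucose, 510 and 543 in starved controls, 780 and 908 in fed depleted cells and 737 and 779 in starved depleted cells. Of those 10 markers, 4 averaged under 1 CPM, TYR among them. Summed markers of epithelial, fibroblast and blood cells stayed at or below 37.9, 15.3 and 2.61 CPM, and KRT20 was at 0 in every library. Most of the melanocyte sum was SOX10, at 633 ± 46.2 CPM in fed and 348 ± 42.8 CPM in starved controls. Of 9 tested melanocyte markers, starvation of control cells lowered 2, raised 1 and left 6 not called, against 34.2% of all genes called. The lower melanocyte sum in starved controls moved with the starvation results, and its part in them was not tested.

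The libraries also differed within groups in how their counts depended on the GC content of transcripts. The slope of log2 CPM per 10 points of GC percent was 0.20, -0.29 and 0.14 in control libraries 1, 2 and 3 with glucose and -0.21, -0.25 and 0.16 in starved control libraries 1, 2 and 3. It was 0.17 in each of the 3 depleted libraries with glucose and 0.09, -0.06 and -0.31 in starved depleted libraries 1, 2 and 3. Mitochondrial transcripts took 3.06% to 14.6% of counts, and the highest share was in control library 2. The labels name no batch that matches this slope. Within groups, log2 levels followed this slope with a Pearson r of 0.92 to 0.99 for KEAP1, MAFG, NQO1, SRXN1, OSGIN1 and PRDX1. For NFE2L2 and TXN the r was -0.98 and -0.94, for SQSTM1 0.66 and for TXNRD1 -0.50. Values are therefore also given below for libraries of like slope, meaning slopes of the same sign. Of the libraries, 7 rise with GC and 5 fall with it. Slopes still differ inside a set, from -0.06 to -0.31 in the falling one, so these ratios are not fully matched for slope. A fit with the sign of the slope (rising or falling) as a further term is also given. The slope was estimated from these same counts, and the split and the fit were added after the data had been seen.

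**Figure D1:**
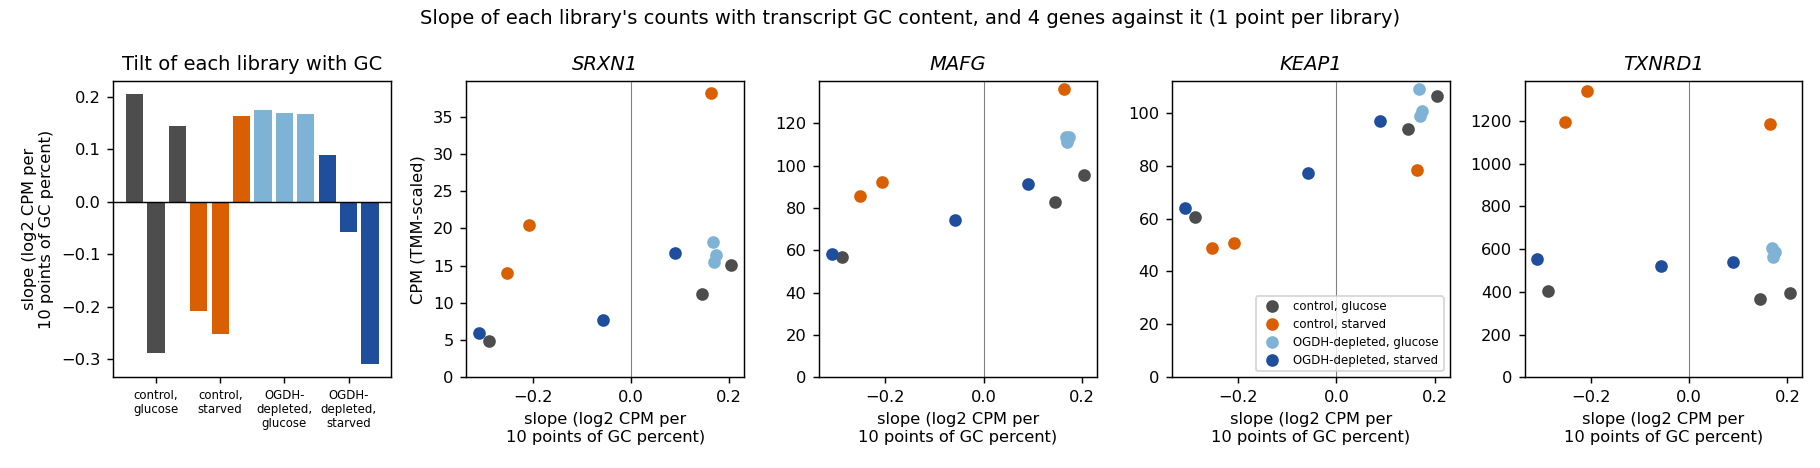
Left, the slope of each library's log2 CPM with transcript GC content (bars, 1 per library, in log2 units per 10 points of GC percent). Right, the level in CPM of SRXN1, MAFG, KEAP1 and TXNRD1 against that slope (1 point per library, coloured by group). Levels of KEAP1 and MAFG climb with the slope inside groups, while the 3 starved control libraries of TXNRD1 stand above 1000 CPM at every slope.

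Levels below are CPM relative to library sizes scaled by the trimmed mean of M-values, means are ± SD with n = 3, and differences are log2 fold changes with standard errors (SE) from edgeR's quasi-likelihood test. A gene was called when its Benjamini-Hochberg adjusted p over all 18526 tested genes was under 0.05. The 10 genes were chosen with earlier results of these data known, so shares of all genes beside their counts are a description. Starvation of control cells raised 5 of the 10 genes, NFE2L2, TXNRD1, OSGIN1, SQSTM1 and TXN, and lowered none, against 16.9% of all tested genes called higher and 34.2% called in either direction. Starvation of OGDH-depleted cells gave 0 calls among the 10, against 6.97% of all genes (2.31% higher and 4.66% lower), and at an unadjusted p under 0.05 there was 1 higher (NFE2L2) and 1 lower (MAFG). DESeq2 also gave 0 of the 10 there, limma voom with sample weights gave 8, and the GC offset, the fit of the compared groups only and the fit without 3 libraries each gave 2. Over all genes these 5 alternatives called 2031, 9410, 2036, 1823 and 3373 in the same order, against 1291 in the main fit. OGDH loss with glucose raised 1 of the 10, TXNRD1, against 2.86% of all genes (1.48% higher and 1.38% lower). OGDH loss without glucose lowered 3, TXNRD1, OSGIN1 and SQSTM1, against 14.8% of all genes called lower and 28.4% called in either direction. The interaction, which tests whether the response to starvation differed between depleted and control cells, was called lower for the same 3 genes, against 8.84% of all genes called lower and 8.19% called higher.

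The median log2 fold change of the 10 genes was 0.91 for starvation in control cells, where the median of all tested genes was -0.023. It was -0.13 for starvation in depleted cells (0.020 over all genes), 0.29 for OGDH loss with glucose (-0.014), -0.53 where glucose was absent (0.0042) and -0.88 for the interaction (0.014). These comparisons share groups: starvation in control cells and OGDH loss without glucose both use the 3 starved control libraries. The libraries of the compared groups did not overlap for 4 of the 10 genes on starvation of control cells, all higher, against 40.2% of all genes (19.4% higher, 20.8% lower). On starvation of depleted cells this held for 2 genes higher and 3 lower (39.7% of all genes, with 20.6% higher and 19.1% lower). For OGDH loss it held for 5 genes with glucose, all higher (27.0%, with 14.2% higher and 12.9% lower), and for 3 without it, all lower (38.7%, with 19.1% higher and 19.6% lower). With the sign of the GC slope as a term the numbers of the 10 genes called were 9, 0, 4, 9 and 9 in the same order, and the shares of all tested genes called were 51%, 11.8%, 11.8%, 49.3% and 35.8%.

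**Figure D2:**
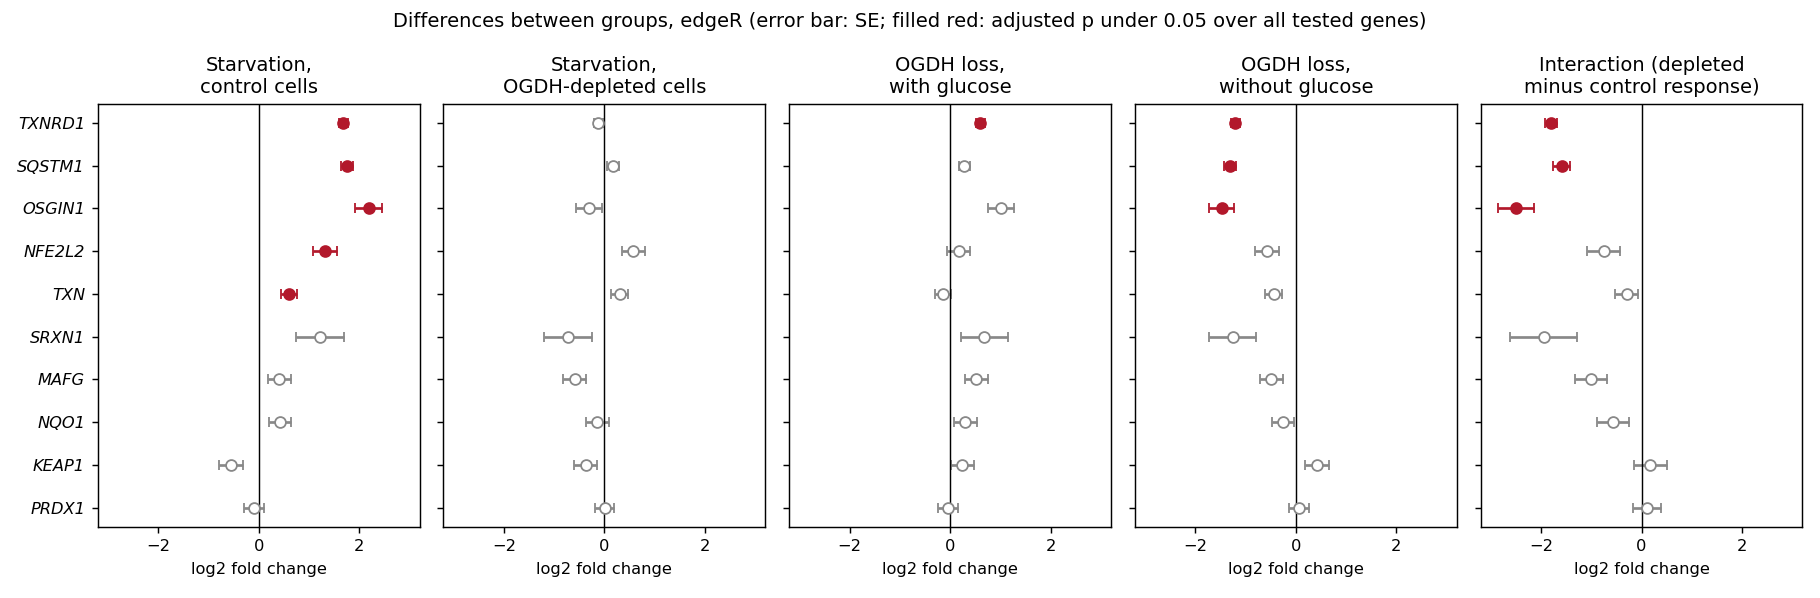
Log2 fold change of each of the 10 genes in the 5 comparisons (points, with SE as error bars), filled red where the edgeR adjusted p over all tested genes was under 0.05. The red points number 5, 0, 1, 3 and 3 from left to right, and TXNRD1, SQSTM1 and OSGIN1 carry all those in the last panels.

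Of the regulators, the messenger of NRF2 itself rose on starvation of control cells. NFE2L2 (chromosome 2, 177218667 to 177392756, minus strand, hg38) stood at 73.0, 128 and 79.9 CPM in the 3 control libraries with glucose and at 272, 259 and 171 CPM in the 3 starved controls. It stood at 111, 108 and 97.7 CPM in depleted cells with glucose and at 127, 156 and 188 CPM in starved depleted cells. The starved controls were above every control library with glucose, and they overlapped the starved depleted cells. The mean went from 93.5 ± 29.8 to 234 ± 54.8 CPM, a log2 fold change of 1.32 (SE 0.24, adjusted p = 0.0012). In depleted cells the log2 fold change was 0.57 (SE 0.23, adjusted p = 0.17), with no overlap of the libraries, as for 39.7% of all genes. Among depleted libraries of rising slope the log2 ratio was 0.27 (1 starved against 3 with glucose). With the slope's sign as a term the fold change in depleted cells was 0.16 (SE 0.10, adjusted p = 0.32). The difference between the responses, -0.75 (SE 0.33), had an adjusted p of 0.15. Among libraries of like GC slope the starvation log2 ratio of NFE2L2 in control cells was 1.16 (1 starved against 2 with glucose, rising slope) and 1.05 (2 against 1, falling slope). The fit with the slope's sign gave NFE2L2 an interaction of -0.97 (SE 0.12, adjusted p = 1.1e-05). Of the exon bases counted for NFE2L2, 23.4% are shared with HNRNPA3 on the opposite strand, and counting was not by strand.

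KEAP1, the substrate adaptor that holds NRF2 for degradation, was not called by edgeR in any of the 5 comparisons. KEAP1 (chromosome 19, 10486125 to 10503558, minus strand) stood at 106, 60.4 and 93.7 CPM in controls with glucose and at 50.6, 48.9 and 78.3 CPM in starved controls. It stood at 101, 98.7 and 109 CPM in depleted cells with glucose and at 96.8, 77.3 and 64.1 CPM in starved depleted cells. Control library 2 lay in the range of the starved controls, and starved control library 3 lay above it. The starvation log2 fold change in control cells was -0.55 (SE 0.24, adjusted p = 0.094). Within libraries of like GC slope the log2 ratio of KEAP1 was -0.35 for the rising and -0.28 for the falling slope. With the sign of the slope as a term it was -0.34 (SE 0.09, adjusted p = 0.0044), past the threshold. That fit called 51% of all tested genes for this comparison, against 34.2% in the main fit.

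MAFG, one of the small MAF partners of NRF2, was also called in none of the 5 comparisons by edgeR. MAFG (chromosome 17, 81918270 to 81927735, minus strand) had 95.8, 57.1 and 83.0 CPM in controls with glucose and 92.3, 85.5 and 136 CPM in starved controls. It had 113, 111 and 114 CPM in depleted cells with glucose and 91.5, 74.1 and 58.2 CPM in starved depleted cells. All 3 starved depleted libraries were below all 3 depleted libraries with glucose, and the control groups overlapped. The log2 fold change on starvation was 0.41 (SE 0.23, adjusted p = 0.18) in control and -0.59 (SE 0.23, adjusted p = 0.14) in depleted cells. Their difference was -1.01 (SE 0.32) with an adjusted p of 0.052, just outside the threshold, and DESeq2 called it (-1.02, adjusted p = 0.021). Among control libraries of like slope the log2 ratio of MAFG was 0.61 and 0.64. Among depleted libraries of rising slope it was -0.30 (1 starved against 3 with glucose). With the sign of the slope as a term the fold change in depleted cells was -0.23 (SE 0.10, adjusted p = 0.16). Adding the sign of the slope gave MAFG an interaction of -0.83 (SE 0.13, adjusted p = 7.4e-05).

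TXNRD1 gave the most precise difference of the 10 genes and was the only one of them called in 4 of the 5 comparisons. TXNRD1 (chromosome 12, 104215779 to 104350307, plus strand) stood at 393, 403 and 365 CPM in controls with glucose and at 1339, 1197 and 1188 CPM in starved controls. It stood at 586, 564 and 608 CPM in depleted cells with glucose and at 538, 522 and 556 CPM in starved depleted cells. The 4 groups did not overlap: controls with glucose were lowest, starved controls were highest, and both depleted groups lay between them. The mean rose from 387 ± 19.4 to 1241 ± 84.6 CPM on starvation of control cells, a log2 fold change of 1.68 (SE 0.09, adjusted p = 1.7e-07) or 3.21-fold. In depleted cells the means were 586 ± 21.9 and 539 ± 16.95 CPM, a log2 fold change of -0.12 (SE 0.09, adjusted p = 0.41). OGDH loss raised TXNRD1 by 0.60 (SE 0.09, adjusted p = 0.0049) with glucose and lowered it without glucose, with a log2 fold change of -1.20 (SE 0.09, adjusted p = 3.3e-06). The interaction was -1.80 (SE 0.13, adjusted p = 6.2e-06). Within libraries of like GC slope the starvation log2 ratio of TXNRD1 in control cells was 1.65 for both slopes. For OGDH loss without glucose the log2 ratio of TXNRD1 was -1.14 (1 library against 1, rising slope) and -1.23 (2 against 2, falling slope). With glucose all 3 depleted libraries rise with GC, and against the 2 such control libraries the log2 ratio was 0.63. The rise with OGDH loss in glucose did not pass a test against a 1.5-fold change.

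SQSTM1, which encodes the autophagy receptor p62 and is itself an NRF2 target, followed a pattern of the same kind. SQSTM1 (chromosome 5, 179806398 to 179838078, plus strand) had 658, 576 and 585 CPM in controls with glucose and 2001, 2029 and 2147 CPM in starved controls. It had 762, 787 and 664 CPM in depleted cells with glucose and 911, 866 and 720 CPM in starved depleted cells. The starved controls stood apart from all other libraries, and the depleted groups overlapped each other. The mean rose from 606 ± 45.3 to 2059 ± 77.6 CPM in control cells, with a log2 fold change of 1.76 (SE 0.12, adjusted p = 8e-07). In depleted cells the log2 fold change was 0.17 (SE 0.11, adjusted p = 0.36). Without glucose SQSTM1 was lower in depleted than in control cells by a log2 fold change of -1.31 (SE 0.12, adjusted p = 1.1e-05), and the interaction was -1.59 (SE 0.16, adjusted p = 6.7e-05). Its starvation log2 ratio among control libraries of like slope was 1.79 and 1.81. The log2 ratio of depleted to control cells without glucose was -1.24 (1 library against 1, rising slope) and -1.35 (2 against 2, falling slope). The gene shares 21.0% of its counted exon bases with MRNIP on the opposite strand.

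OSGIN1, an oxidative stress induced growth inhibitor, had the largest log2 fold changes of the 10 genes on starvation of control cells and in the interaction, at low levels. OSGIN1 (chromosome 16, 83931311 to 83966332, plus strand) stood at 5.71, 3.72 and 5.32 CPM in controls with glucose and at 17.8, 17.6 and 31.6 CPM in starved controls. It stood at 9.73, 10.3 and 9.86 CPM in depleted cells with glucose and at 10.3, 7.08 and 6.70 CPM in starved depleted cells. As with TXNRD1, both depleted groups lay above the controls with glucose and below the starved controls. Starvation of control cells gave a log2 fold change of 2.18 (SE 0.26, adjusted p = 8e-05), and of depleted cells -0.31 (SE 0.25, adjusted p = 0.46). OGDH loss gave 1.02 (SE 0.26, adjusted p = 0.066) with glucose and -1.48 (SE 0.25, adjusted p = 0.0013) without it. The interaction was -2.49 (SE 0.36, adjusted p = 0.00082). Among control libraries of like slope the starvation log2 ratio of OSGIN1 was 2.52 and 2.25. Its log2 ratio of depleted to control cells without glucose was -1.62 (1 library against 1, rising slope) and -1.36 (2 against 2, falling slope). DESeq2 called the difference with glucose (adjusted p = 0.0069), as did the fit with the sign of the slope as a term (0.82, SE 0.11, adjusted p = 7.1e-05).

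SRXN1, the sulfiredoxin, was not called by edgeR, with a wide spread between libraries. SRXN1 (chromosome 20, 646615 to 653200, minus strand) had 15.1, 4.85 and 11.2 CPM in controls with glucose and 20.4, 14.03 and 38.1 CPM in starved controls. It had 16.4, 15.5 and 18.2 CPM in depleted cells with glucose and 16.6, 7.71 and 5.97 CPM in starved depleted cells. Starved control library 2 fell inside the range of the controls with glucose. The log2 fold change was 1.22 (SE 0.47, adjusted p = 0.068) on starvation of control cells and -0.72 (SE 0.47, adjusted p = 0.36) in depleted cells, and the interaction was -1.94 (SE 0.67, adjusted p = 0.071). Within libraries of like slope the starvation log2 ratio of SRXN1 in control cells was 1.53 and 1.83, and DESeq2 called it (adjusted p = 0.028). With the sign of the slope as a term it was 1.65 (SE 0.15, adjusted p = 1.2e-07). In depleted cells the log2 ratio of SRXN1 at rising slope was -0.0077 (1 starved against 3 with glucose). The fit with the slope's sign gave SRXN1 -0.014 there (SE 0.16, adjusted p = 0.97). Of its counted exon bases 90.7% also belong to ENSG00000270299 on the same strand, and fragments in both were not counted, so its level is uncertain.

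NQO1, the quinone reductase often used as a readout of NRF2, was not called by edgeR in any comparison. NQO1 (chromosome 16, 69706996 to 69726668, minus strand) had 170, 106 and 155 CPM in controls with glucose and 175, 153 and 251 CPM in starved controls. It had 181, 166 and 188 CPM in depleted cells with glucose and 200, 156 and 128 CPM in starved depleted cells. The groups overlapped in all 4 pairwise comparisons of the design. The log2 fold change on starvation of control cells was 0.42 (SE 0.22, adjusted p = 0.17), and the interaction was -0.56 (SE 0.31, adjusted p = 0.27). The log2 ratio of NQO1 among control libraries of like slope was 0.62 for both slopes. With the sign of the slope as a term it was 0.61 (SE 0.09, adjusted p = 2.1e-05), under the threshold. That fit called 51% of all tested genes for this comparison, against 34.2% in the main fit.

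**Figure D3:**
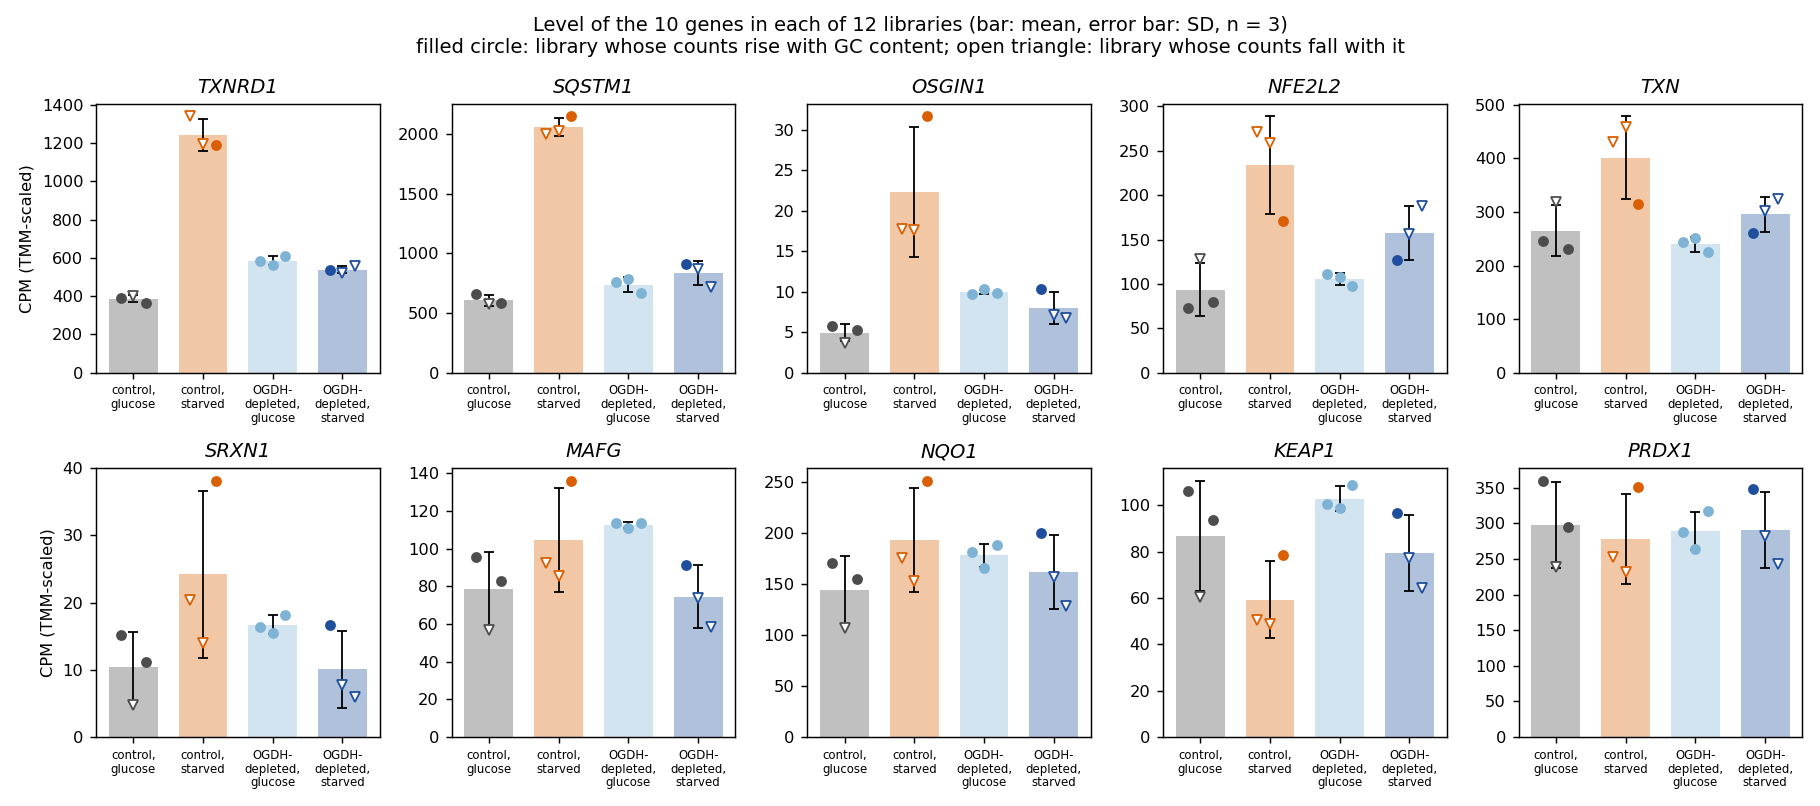
Level in CPM of each of the 10 genes in the 12 libraries (points), with the mean (bar) and SD (error bar, n = 3) of each group, axes from 0. Filled circles are the 7 libraries whose counts rise with GC content and open triangles the 5 whose counts fall with it. TXNRD1, SQSTM1 and OSGIN1 have starved controls above all other libraries, and PRDX1 lies between 231 and 360 CPM throughout.

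Thioredoxin itself, TXN, was called higher on starvation of control cells, with a smaller log2 fold change than its reductase. TXN (chromosome 9, 110243810 to 110256507, minus strand) had 245, 319 and 232 CPM in controls with glucose and 430, 459 and 314 CPM in starved controls. It had 244, 251 and 224 CPM in depleted cells with glucose and 261, 301 and 325 CPM in starved depleted cells. Starved control library 3 lay just below control library 2, so the control groups overlapped. The log2 fold change of TXN was 0.60 (SE 0.16, adjusted p = 0.015), called, on starvation of control cells and 0.30 (SE 0.16, adjusted p = 0.28), not called, in depleted cells. Among depleted libraries of rising slope the log2 ratio was 0.12 (1 starved against 3 with glucose). The fit with the slope's sign gave 0.036 in depleted cells (SE 0.08, adjusted p = 0.83). Among control libraries of like slope the ratio was 0.40 and 0.48. The call was lost when only the control groups were fitted (adjusted p = 0.063) and on leaving out control library 1 or 3 or starved control library 1 or 2 (adjusted p from 0.053 to 0.064). The interaction, -0.29 (SE 0.23), had an adjusted p of 0.44, so this fit does not show a different response of TXN in depleted cells. With the sign of the GC slope as a term it was -0.43 (SE 0.11, adjusted p = 0.0046).

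PRDX1, the peroxiredoxin, was the member with the smallest differences. PRDX1 (chromosome 1, 45510914 to 45542732, minus strand) had 360, 239 and 294 CPM in controls with glucose and 253, 231 and 350 CPM in starved controls. It had 287, 264 and 318 CPM in depleted cells with glucose and 348, 282 and 243 CPM in starved depleted cells. All 4 groups overlapped. The starvation log2 fold change was -0.10 (SE 0.19, adjusted p = 0.73) in control and 0.0058 (SE 0.19, adjusted p = 0.99) in depleted cells, and the interaction was 0.10 (SE 0.27, adjusted p = 0.86). A p of this size does not show that the levels were equal. PRDX1 shares 29.8% of its counted exon bases with MMACHC on the opposite strand.

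Levels can be compared between genes only per length, here as CPM per kilobase of counted exon (RPKM). In controls with glucose TXN was highest (263 ± 46.6 RPKM), followed by PRDX1 (177 ± 35.8), SQSTM1 (80.5 ± 6.01), TXNRD1 (57.7 ± 2.90) and NQO1 (48.5 ± 11.2). KEAP1 (24.3 ± 6.64), MAFG (14.999 ± 3.77), NFE2L2 (6.25 ± 1.99), SRXN1 (4.11 ± 2.06) and OSGIN1 (0.88 ± 0.19) were lower. The neighbours TXNRD1 and NQO1 lay within the sum of their SDs, as did KEAP1 and MAFG, and NFE2L2 and SRXN1. In starved controls TXNRD1, at 185 ± 12.6 RPKM, and PRDX1, at 165 ± 37.7 RPKM, lay within the spread of their libraries. The counted length of NFE2L2, 14975 bases, includes long annotated exons, so its RPKM is low for its count. The RPKM of SRXN1 divides by its full length, although fragments in the 90.7% of exon bases shared with ENSG00000270299 were not counted. Its RPKM is therefore biased low, and its place in this order is uncertain. Other members with shared exon bases can be low for the same reason.

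The other genes of the pathway were taken from lists of textbook members, chosen with earlier results of these data known. Among 25 measured of 27 other NRF2 targets, starvation of control cells raised 11 and lowered 3, with a median log2 fold change of 0.19. Of all tested genes, 16.9% were called higher there and 17.3% lower. HMOX1, the haem oxygenase, rose by a log2 fold change of 7.90 (SE 0.32), from 14.8 ± 4.41 to 3543 ± 954 CPM. UGDH, which makes UDP-glucuronic acid, rose by 2.35 (SE 0.17), and FTH1, the ferritin heavy chain, by 1.75 (SE 0.16). The 3 that were lower were CBR1 (-0.66), ABCC1 (-0.55) and ABCC2 (-0.48), a carbonyl reductase and a pair of export pumps. In depleted cells starvation raised 1 of the 25, HMOX1, by 2.34 (SE 0.25), from 25.2 ± 2.40 to 128 ± 23.0 CPM. The share of all genes called higher in that comparison was 2.31%. OGDH loss with glucose gave 0 calls among the 25 in edgeR (2.86% of all genes), with 3 higher and 1 lower at an unadjusted p under 0.05. Without glucose it lowered 10 and raised 1, ABCC2, against 14.8% of all genes called lower and 13.5% called higher. The interaction was called lower for 9 of the 25, among them HMOX1 (-5.56, SE 0.36), UGDH (-2.22, SE 0.24) and GCLM (-1.39, SE 0.24), the modifier subunit of the enzyme that starts glutathione synthesis, and higher for 1, ABCC2 (0.48, SE 0.12). Over all genes the interaction was called lower for 8.84% and higher for 8.19%.

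Of 13 other regulators of NRF2, starvation of control cells raised 3, lowered 1 and left 9 not called, with a median of -0.018. The 4 calls of 13 are near the 34.2% of all tested genes called. The small MAF genes MAFF and MAFK rose by 2.14 (SE 0.28) and 1.39 (SE 0.42), and BACH1, a repressor that competes for antioxidant response elements, rose by 1.49 (SE 0.10). TRIM21, a ubiquitin ligase known to modify p62, fell by 0.53 on the log2 scale. Starvation of depleted cells gave 0 calls among the 13 in edgeR (6.97% of all genes), with 1 higher and 1 lower at an unadjusted p under 0.05. The interaction was lower for MAFK (-1.92, SE 0.59), MAFF (-1.73, SE 0.38) and BACH1 (-1.14, SE 0.14), against 8.84% of all genes called lower.

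Of 18 other genes of the thioredoxin, glutaredoxin and sestrin systems, starvation of control cells raised 3 and lowered 4, with a median of -0.15. The 7 calls of 18 are near the background of 34.2%. SESN2, a sestrin known as a stress-responsive inhibitor of mTORC1, rose by 2.90 (SE 0.24), and the glutaredoxins GLRX and GLRX3 rose by 1.58 (SE 0.15) and 0.43 (SE 0.15). MSRB1 (-0.89), SESN1 (-0.86) and TXNIP (-0.58), the last an inhibitor of thioredoxin that is induced by glucose, were lower. In depleted cells starvation lowered TXNIP by a log2 fold change of -1.49 (SE 0.13), and raised SESN3 by 1.04 (SE 0.27). The level of SESN3 was low there, at 1.72 ± 0.28 CPM with glucose and 3.56 ± 0.85 CPM when starved. The interaction was lower for SESN2 (-3.38, SE 0.33), GLRX (-1.41, SE 0.20) and TXNIP (-0.91, SE 0.19), and higher for SESN1 (0.82, SE 0.15). The shares over all genes were 8.84% lower and 8.19% higher.

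Of 12 selective autophagy receptors and partners of p62, starvation of control cells raised 7 and lowered 0, with a median of 0.80. Over all tested genes 16.9% were called higher there and 17.3% lower. MAP1LC3B, the ubiquitin-like protein that anchors receptors to autophagosomes, rose by 2.57 (SE 0.12), from 57.4 ± 6.68 to 340 ± 42.5 CPM. In depleted cells 1 of the 12 was called, OPTN at 0.33 (SE 0.09), against 6.97% of all genes. The interaction was lower for 5, against 8.84% of all genes called lower. MAP1LC3B (-2.25, SE 0.17), ULK1 (-1.45, SE 0.26) and GABARAPL1 (-0.91, SE 0.25) were the furthest from 0.

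**Figure D4:**
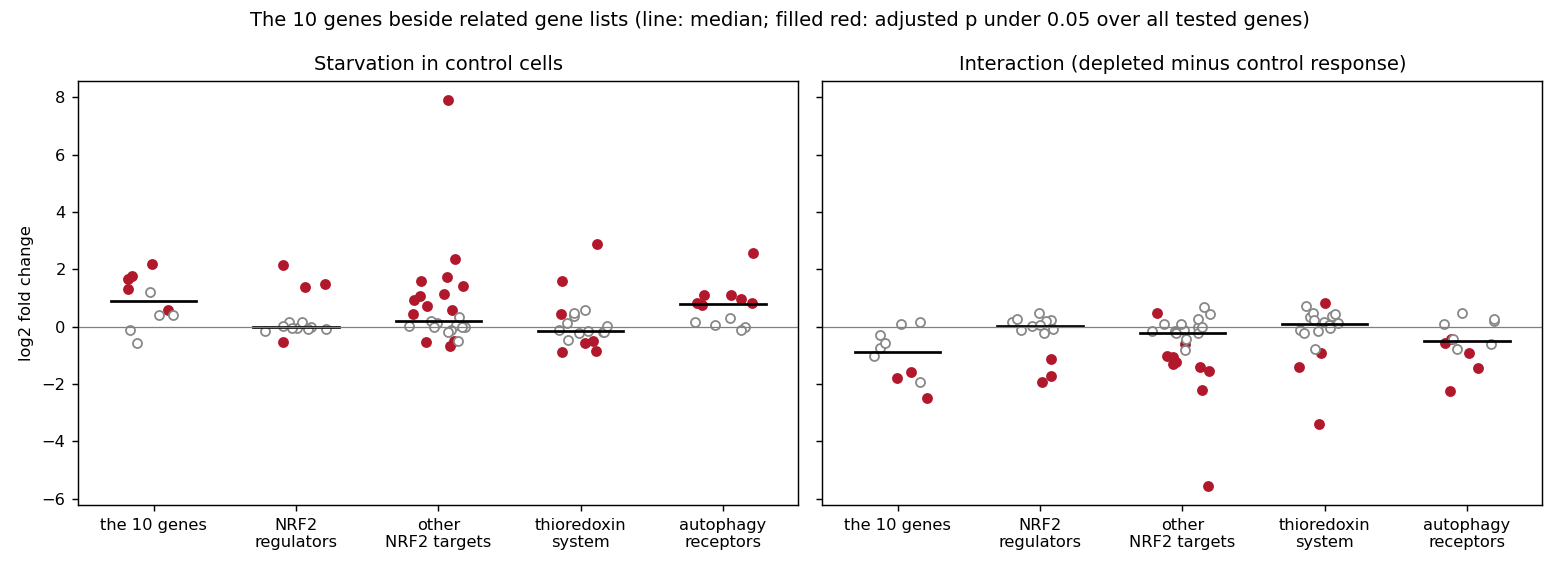
Log2 fold change of the 10 genes and of 4 lists of related genes (points, 1 per tested gene; line, median) for starvation in control cells (left) and for the interaction (right), filled red where the edgeR adjusted p over all tested genes was under 0.05. The highest point on the left, at 7.90, and the lowest on the right, at -5.56, are both HMOX1.

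The genes most like each member were found among 9578 genes with a mean of at least 10 CPM, by Pearson correlation of log2 CPM over the 12 libraries, as a description. For TXNRD1 they were AGO2 (0.994), CEBPG (0.993) and SNAPC1 (0.991), and for SQSTM1 they were TUFT1 (0.993), HERPUD1 (0.993) and COPA (0.992). For OSGIN1 they were DGKD (0.988), MGLL (0.987) and PXDC1 (0.983). NFE2L2 was most like ATF6 and KPNA4 (both 0.993) and CCSER2 (0.992), and TXN most like TRIM5 (0.993), RANBP9 (0.990) and TENT2 (0.989). The points share 4 groups and the GC slope of their libraries.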

How the data were processed

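RNA of A375 cells was sequenced in 12 libraries, 3 in each of its groups, which number 4. The deposited values are raw fragment counts for each gene name, from featureCounts 2.0.1 on exons of hg38, not by strand and without fragments that map or overlap more than once, per the file headers. The submitters' processing notes name Subread and hg38, and the aligner is not given in the sources used here. The deposited table also gives a length per gene in bases, the other value used, per the file headers.

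From the counts, edgeR 4.0.16 in R 4.3.3 fitted 1 mean per group over all 12 libraries after filterByExpr (minimum count 10, minimum total 15) and TMM scaling, with robust quasi-likelihood tests and Benjamini-Hochberg adjustment over 18526 genes. SE is the log2 fold change divided by the square root of F. The 10 genes, the gene lists and the named genes were chosen with earlier results of these data known. Named genes were all 10, and from each other list at most 3 called genes a direction with the furthest fold changes and at least 5 CPM in the higher group. On simulated counts of 18200 genes, 81% of changes set at 2-fold and 99% of those at 4-fold were recovered for starvation in control cells, and 35% and 93% for the interaction. Whether these recovery rates hold for libraries that differ in GC slope within groups, as here, was not tested. Transcript GC came from GENCODE and covered 81.9% of tested genes. Alternatives used limma 3.58.1 and DESeq2 1.42.0, other scalings and filters, left-out libraries and, for GC content, an offset or the sign of the slope as a term. No protein sequence is shown.

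No 2 libraries of a group agreed within sampling noise.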

Additional observations from a re-analysis of the deposited data

Results flagged for a closer look

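The response to starvation differed between depleted and control cells for 3 of the 10 genes, by the interaction term of the edgeR model with adjustment over all tested genes, of which 8.84% were called lower and 8.19% higher. For TXNRD1 the response was 1.68 in control and -0.12 in depleted cells, a difference of -1.80 on the log2 scale (SE 0.13, adjusted p = 6.2e-06). For SQSTM1 the responses were 1.76 and 0.17 and the difference -1.59 (SE 0.16, adjusted p = 6.7e-05). For OSGIN1 they were 2.18 and -0.31 and the difference -2.49 (SE 0.36, adjusted p = 0.00082). In control cells all 3 starved libraries were above all 3 with glucose for each of these genes, as for 19.4% of all tested genes. Each difference kept its sign and its call in all 24 alternatives run.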

How the results depend on the processing

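Of 50 results, 1 for each of the 10 genes in each of the 5 comparisons, 13 kept their direction and their side of the threshold in every alternative run. They include NFE2L2, TXNRD1, OSGIN1 and SQSTM1 for starvation in control cells and TXNRD1, OSGIN1 and SQSTM1 for the interaction and for OGDH loss in starved cells. In the order starvation in control cells, starvation in depleted cells, OGDH loss in fed cells, OGDH loss in starved cells and interaction, the 10 genes gave 5, 0, 1, 3 and 3 calls and all genes 6345, 1291, 530, 5253 and 3154. The calls among the 10 were 8, 8, 5, 8 and 8 with limma voom and sample weights, 9, 0, 4, 9 and 9 with the sign of the GC slope as a term, 8, 2, 3, 8 and 7 with a GC offset, and 7, 2, 4, 7 and 8 without the 3 libraries that stood apart in an earlier analysis. Leaving those out leaves only rising slopes in fed and only falling slopes in starved controls, so slope and starvation cannot be told apart there. Among the 10, DESeq2 gave 2, 5 and 5 calls in the last 3 comparisons, the fit without a filter 2 for OGDH loss with glucose, a test against a 1.5-fold change 0 there, and the fit of the compared groups only 2 for starvation in depleted cells. Calls over all genes were 12246, 9410, 4392, 10873 and 8934 with voom, 2259, 213, 28, 1645 and 1065 against a 1.5-fold change, and 11338, 3373, 2073, 9863 and 8060 without the 3 libraries. They were 8258, 2036, 1460, 7429 and 5020 with the GC offset (44.6%, 11%, 7.88%, 40.1% and 27.1% of tested genes) and 9457, 2189, 2195, 9127 and 6636 with the slope-sign term. DESeq2 gave 2031 for starvation in depleted cells and 1172 for OGDH loss with glucose, the fit of the compared groups gave 4188 for starvation in control cells and 194 for OGDH loss with glucose, and the fit without a filter gave 310 for the latter. With one library left out, all genes gave 4958 to 7463, 565 to 1111, 166 to 378, 3951 to 5321 and 2231 to 3264 calls, and the 10 genes 4 to 6, 0 to 0, 1 to 1, 3 to 6 and 3 to 5. The 6 for OGDH loss without glucose came without starved control library 3. The 5 for the interaction came without control library 1, starved control library 2 or starved depleted library 1. The direction turned for the following results, which were not called in either fit. For starvation in control cells these were MAFG without the 3 libraries (-0.017) and PRDX1 with the slope-sign term (0.050). For starvation in depleted cells they were KEAP1 (0.019), NQO1 (0.22) and OSGIN1 (0.12) with the slope-sign term, TXN with the GC offset (-0.020), and PRDX1 with upper-quartile factors (-0.028), voom (-0.018), the stricter filter (-0.0057) and the compared groups only (-0.011). TXN for OGDH loss with glucose was 0.027 with voom and 0.036 with the GC offset, and NQO1 for OGDH loss without glucose was 0.10 without the 3 libraries. With one library left out, PRDX1 ranged from -0.30 to 0.059, -0.14 to 0.13, -0.17 to 0.12, -0.083 to 0.27 and -0.055 to 0.31 in the 5 comparisons, NQO1 from -0.32 to 0.016 for starvation in depleted cells and TXN from -0.24 to 0.0069 for OGDH loss with glucose. Apart from the smaller sets fitted, the cause was not tested. 

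No pairing of the libraries by the replicate numbers of the titles was seen. Same-numbered deviations correlated from -0.79 to 0.75 and differently numbered ones from -0.84 to 0.80. Of 12 libraries, 4 correlated best with their own number. The deviations also hold the GC slope of the libraries, so this check does not show that there was no pairing. With a replicate block all genes gave 5931, 989, 312, 4836 and 2682 calls and the 10 genes 6, 0, 1, 3 and 4.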

Other observations

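BACH1 and HMOX1, a repressor of antioxidant response elements and a gene it is known to repress, were both higher in starved than in fed control cells. In control cells BACH1 had 30.7 ± 3.25 CPM when fed and 85.9 ± 1.88 CPM when starved, and in depleted cells 37.3 ± 1.91 and 47.5 ± 0.72 CPM (SD, n = 3). HMOX1 in depleted cells was higher after starvation but stood at 128 ± 23.0 CPM, against 3543 ± 954 CPM in starved controls. TXNIP was lower after starvation in both genotypes, at 10.9 ± 0.23 and 7.26 ± 0.76 CPM in control cells and at 8.60 ± 0.30 and 3.04 ± 0.47 CPM in depleted cells.

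KEAP1 was most like RIC8A (Pearson r 0.994 over the 12 libraries), MAFG most like SEMA7A (0.989), NQO1 most like FBXL6 (0.991), SRXN1 most like RNF185 (0.978) and PRDX1 most like NDUFS3 (0.978). These are descriptions over libraries that share groups and the GC slope.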
